A study of Homo sapiens with 6 samples.

Results

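The genes described here are 10 genes of the cytosolic heat shock response, chosen by name with earlier results of these data known. They are HSPA1A, HSPA1B, HSPA6, HSPA8, HSPB1, HSPH1, DNAJB1, HSP90AA1, HSP90AB1 and HSF1. All 10 were found by symbol among 23834 genes, and all 10 were among the 12337 genes that reached 1 FPKM (fragments mapped to a transcript, scaled for its length and for library size) in at least 1 library. PolyA RNA was sequenced from 2 human B cell lymphoma lines, DAUDI, which stands for Burkitt lymphoma, and DOHH2, which stands for follicular lymphoma. Each line was sequenced in 3 states, 1 library each, giving 6 libraries: cells titled WT, cells resistant to idelalisib, an inhibitor of the phosphoinositide 3-kinase delta isoform, and cells resistant to ibrutinib, an inhibitor of Bruton tyrosine kinase. The labels give no drug concentration, no length of selection and no clone or culture number, and they do not say whether the resistant cells were in drug when RNA was taken. With 1 library per group, a p-value below measures only the spread between these libraries.

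Heat shock proteins are molecular chaperones that bind unfolded proteins and help them fold, refold or be degraded. HSP70 proteins take their substrates from J-domain partners such as DNAJB1 and release them with the help of exchange factors such as HSPH1, and HSP90 proteins then complete the folding of many kinases and receptors. The transcription factor HSF1 is held inactive in unstressed cells; when unfolded proteins accumulate it binds heat shock elements upstream of its target genes, and the stress-inducible genes HSPA1A, HSPA1B and HSPA6 respond most steeply. HSPA8 and HSP90AB1 are the constitutive forms, made in large amounts without stress. Bruton tyrosine kinase, the target of ibrutinib, is a known client of HSP90.

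The libraries were alike in how many genes they detected, with 10279 to 10687 genes at 1 FPKM or more. Relative depth against the DAUDI WT-titled library, read from coverage per FPKM, was 0.936 to 1.04 except in the ibrutinib-resistant DAUDI library, at 1.42. All 6 B cell markers examined were at 1 FPKM or more in every library. The libraries titled WT did not group with their lines: DAUDI WT and DOHH2 WT correlated at r = 0.991 across 12186 genes, while each correlated with the resistant libraries, its own line's included, at 0.722 to 0.740. The resistant libraries grouped by line, at 0.980 within DAUDI, 0.992 within DOHH2 and 0.838 to 0.856 between the lines. The word WT is therefore used below only as the title of these libraries. Markers of other cells moved with the states: 0 of 6 myeloid markers reached 1 FPKM in the WT-titled libraries, 4 of 6 in the resistant DAUDI libraries (summed 24.4 and 27.6 FPKM) and 1 of 6 in the resistant DOHH2 libraries (29.3 and 26.2 FPKM, nearly all CD33). Of 6 T and NK markers 0 reached 1 FPKM in the WT-titled libraries and 1 did in each resistant one. It was NKG7 in DAUDI and CD3E in DOHH2. The 6 summed to 0.143 and 0.333 FPKM in the WT-titled libraries and to 1.45 to 3.12 FPKM in the resistant ones. Stromal and epithelial markers summed to 0.193 to 2.75 FPKM over all libraries. The part of these markers in the differences below was not tested. In RNA from a whole culture, fewer expressing cells and less RNA per cell cannot be told apart.

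The heat shock element, the sequence that HSF1 binds, was looked for as the letters GAANNTTC or TTCNNGAA, each of which reads the same on both strands and which can overlap, in the 200 bases upstream of RefSeq start sites (GRCh38.p14). Of 35116 such windows over all genes 9.14% held at least 1 core and 0.926% held 2 or more. Of the 14 windows of the members, 8 held a core and 5 held 2 or more. By gene, 8 of the 9 members examined had a core in at least 1 window. HSPH1 had none in its window, and HSF1 itself was not analysed for sequence. The HSPH1 window was assigned to the start of NM_001286504, while the isoform measured here was NM_006644. The following 30-base stretches are shown because they let the inducible and the constitutive genes be read side by side. Capitals mark the GAA and TTC letters of each core, and coordinates are GRCh38.p14 with the strand of the gene.
HSPA1A, chr6:31815426-31815455, plus strand: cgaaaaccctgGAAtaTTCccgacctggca
HSPA1B, chr6:31827622-31827651, plus strand: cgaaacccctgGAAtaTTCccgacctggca
HSPA6, chr1:161524458-161524487, plus strand: cggaaaggTTCgcGAAagTTCgcggcggcg
DNAJB1, chr19:14518456-14518485, minus strand: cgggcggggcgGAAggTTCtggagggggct
HSPB1, chr7:76302480-76302509, plus strand: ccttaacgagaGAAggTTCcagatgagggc
HSP90AA1, chr14:102087104-102087133, minus strand: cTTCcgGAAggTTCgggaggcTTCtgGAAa
HSP90AB1, chr6:44247770-44247799, plus strand: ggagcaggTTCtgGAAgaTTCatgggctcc
HSPA8, chr11:123062170-123062199, minus strand: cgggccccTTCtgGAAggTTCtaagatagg
The 200-base windows of HSPA1A and HSPA1B aligned with 93.5% identity. The HSP90AA1 stretch, with 3 cores, lies before the start of NM_005348, the isoform that holds nearly all of the gene's FPKM, and the window of the upstream isoform NM_001017963 held no core. HSPA8 and HSP90AB1, which are made without stress, held cores as well, HSP90AB1 in a window that lies inside the gene, 856 bases from the nearest start of a deposited isoform. Cores were thus present both in members that varied widely between libraries and in HSP90AB1, which varied least.

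The members covered a wide range of abundance, which FPKM allows to be compared between genes because it is scaled to transcript length. HSP90AB1, the constitutive HSP90, was the steadiest, at 312 to 399 FPKM over the 6 libraries. HSPA8, the constitutive HSP70 (chr11:122928200-122933043 in hg19), ran from 175 to 740.2 FPKM and HSP90AA1, the inducible HSP90, from 106 to 442 FPKM. The inducible HSP70 genes had the widest spans: HSPA1A from 1.002 to 144 FPKM, HSPA1B from 1.92 to 241 FPKM, and HSPA6 from a value listed at 0 to 72.6 FPKM. HSPB1, a small heat shock protein that holds unfolded proteins soluble, ran from 0.176 to 103 FPKM. Summed over the members, the level was 1106 FPKM in the DAUDI WT-titled library and 974 and 731 FPKM in its idelalisib-resistant and ibrutinib-resistant counterparts. In DOHH2 the corresponding sums were 1951, 1312 and 1289 FPKM, so the DOHH2 WT-titled library was the highest of the 6.

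**Figure D1:**
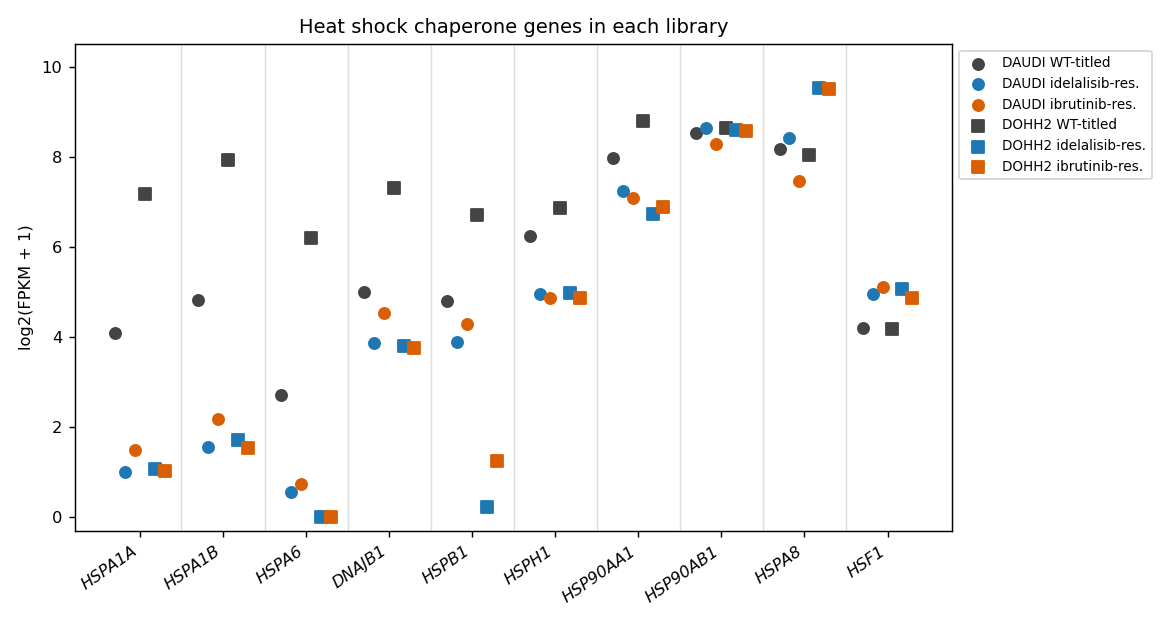
Level of each member in each of the 6 libraries, as log2(FPKM + 1) on the vertical axis; circles are DAUDI, squares DOHH2, grey the WT-titled, blue the idelalisib-resistant and orange the ibrutinib-resistant library. HSPA1A, HSPA1B and HSPA6 are highest in the DOHH2 WT-titled library (144, 241 and 72.6 FPKM) and HSP90AB1 stays between 312 and 399 FPKM.

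The comparison of both WT-titled libraries asks how far the members set these otherwise similar libraries apart. The inducible genes were higher in DOHH2 WT. HSPA6, an HSP70 that is nearly silent without stress, was at 72.6 FPKM in DOHH2 WT and 5.57 FPKM in DAUDI WT, a ratio of 13.0. HSPA1A was at 144 against 16.0 FPKM, a ratio of 8.98, and HSPA1B at 241 against 27.5 FPKM, a ratio of 8.77. DNAJB1, the J-domain partner of inducible HSP70, was at 156 against 30.9 FPKM, and HSPB1 at 103 against 26.7 FPKM.

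Counted at a difference of at least 1 on the log2(FPKM + 1) scale, these 5 of 10 members differed, all higher in DOHH2 WT, where 1.09% of all genes tested differed, 0.608% higher and 0.486% lower. Among the 12186 genes with an isoform of 300 nt or more, 39 were higher and 21 lower at that size. The members took ranks 1, 2 and 3 (HSPA6 with 3.49, HSPA1A and HSPA1B with 3.09 each), 6 (DNAJB1, 2.30) and 10 (HSPB1, 1.90) of the genes higher in DOHH2 WT. Over all 12337 genes tested, with genes of shorter isoforms kept and both directions ordered by size, HSPA6, HSPA1A, HSPA1B, DNAJB1 and HSPB1 took ranks 54, 55, 56, 63 and 70. Among the longer genes, rank 4 was HSPA7, a near-identical copy of HSPA6, at 22.4 against 2.88 FPKM. HSP90AA1 and HSPH1 were higher by less, 0.82 and 0.62. HSP90AB1 (0.11), HSF1 (−0.02) and HSPA8 (−0.14) lay close to no difference. The members were chosen with earlier results of these data known, so these counts and ranks describe the pair and are no test. HSPA1A and HSPA1B, with nearly identical transcripts, count here as separate members. With 1 library on each side the pair has no replicate check. A limma fit added after the data were seen takes its spread from the resistant libraries alone and assumes that the lone WT-titled ones vary like them. It gave HSPA6 an adjusted p of 0.0205 (0.149 with a pseudocount of 0.1), HSPA1A 0.145 and HSPA1B 0.22, where 0.308% of all genes passed (0.162% higher, 0.146% lower). HSPA6 was at 0 to 0.663 FPKM in the libraries that gave that spread, so the value says nothing of the spread at 5.57 to 72.6 FPKM.

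**Figure D2:**
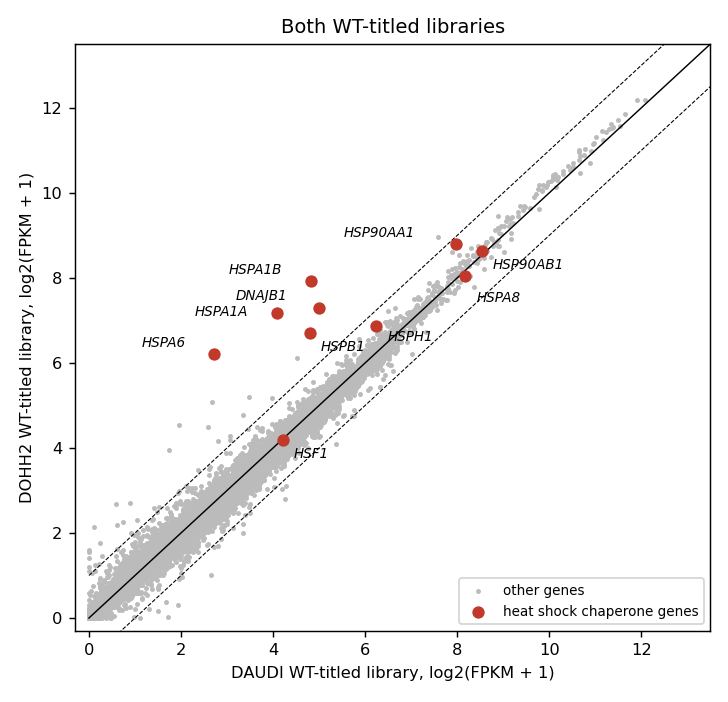
The 12186 tested genes with an isoform of 300 nt or more in both WT-titled libraries, DAUDI on the horizontal and DOHH2 on the vertical axis, both as log2(FPKM + 1). Tested genes with shorter isoforms only are not drawn. The solid line marks equal levels and the dashed lines a difference of 1. The members are in red: 5 lie above the upper dashed line (HSPA6, HSPA1A, HSPA1B, DNAJB1 and HSPB1), and HSF1, HSPA8 and HSP90AB1 lie near the solid line.

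The resistant libraries were then set against the WT-titled library that carries the name of their line. As given above, the WT-titled libraries did not group with their lines. In every comparison with them below, resistance cannot be told apart from whatever else sets the WT-titled pair apart. The inducible HSP70 genes were at 3.54 FPKM or less in all 4 resistant libraries. HSPA1A (chr6:31783291-31785719, in hg19 as for every gene position given) was at 16.0, 1.002 and 1.80 FPKM in WT-titled, idelalisib-resistant and ibrutinib-resistant DAUDI, with 144, 1.11 and 1.03 FPKM in DOHH2 in the same order, which is kept below. HSPA1B (chr6:31795512-31798031) was at 27.5, 1.95 and 3.54 FPKM across the DAUDI states and 241, 2.27 and 1.92 FPKM across those of DOHH2. HSPA6 (chr1:161494036-161496687) was at 5.57, 0.478 and 0.663 FPKM across the DAUDI states and 72.6, 0.0117 and 0 FPKM across those of DOHH2. For all 3 genes both WT-titled libraries were above all 4 resistant ones, with no overlap, as was so for 25.5% of all genes tested. HSPA6 reached 1 FPKM only in the WT-titled libraries, so it was tested because it was high there, and its direction is no result. HSPA1A and HSPA1B encode the same protein from nearly identical transcripts, so how fragments were split between them is uncertain, and the same holds for HSPA6 and HSPA7.

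The partners and the small heat shock protein followed with smaller differences in DAUDI. HSPH1 (chr13:31710763-31736117), an HSP110 that serves as an exchange factor for HSP70, was at 74.8, 30.2 and 28.2 FPKM across the DAUDI states and 115, 30.5 and 28.2 FPKM across those of DOHH2. The 4 resistant libraries lay within 28.2 to 30.5 FPKM, so the resistant libraries of both lines overlapped. DNAJB1 (chr19:14625582-14629201) was at 30.9, 13.6 and 22.3 FPKM across the DAUDI states and 156, 12.9 and 12.4 FPKM across those of DOHH2. HSPB1 (chr7:75931875-75933614) was at 26.7, 13.7 and 18.5 FPKM across the DAUDI states and 103, 0.176 and 1.39 FPKM across those of DOHH2. Neither gene's WT-titled and resistant libraries overlapped, but the ibrutinib-resistant DAUDI library was the nearest to the DAUDI WT-titled one for both.

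The HSP90 pair parted. HSP90AA1 (chr14:102547075-102606086) was at 250.1, 149 and 135 FPKM across the DAUDI states and 442, 106 and 117 FPKM across those of DOHH2, lower in every resistant library than in either WT-titled one. HSP90AB1 (chr6:44213903-44221625) was at 368, 395 and 312 FPKM across the DAUDI states and 399, 386 and 380.2 FPKM across those of DOHH2, where resistant and WT-titled libraries overlapped. HSPA8 was at 289, 339 and 175 FPKM across the DAUDI states and 261, 740.2 and 718 FPKM across those of DOHH2, so its 2 resistant DOHH2 libraries stood above the other 4. HSF1, the regulator itself, was at 17.4, 29.9 and 33.7 FPKM across the DAUDI states and 17.1, 32.3 and 28.3 FPKM across those of DOHH2. It was the only member higher in all 4 resistant libraries than in both WT-titled ones. In all, 7 members were lower and 1 higher in every resistant library than in every WT-titled one, where 58.8% of all genes tested were set apart in that way, 25.5% lower and 33.3% higher.

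**Figure D3:**
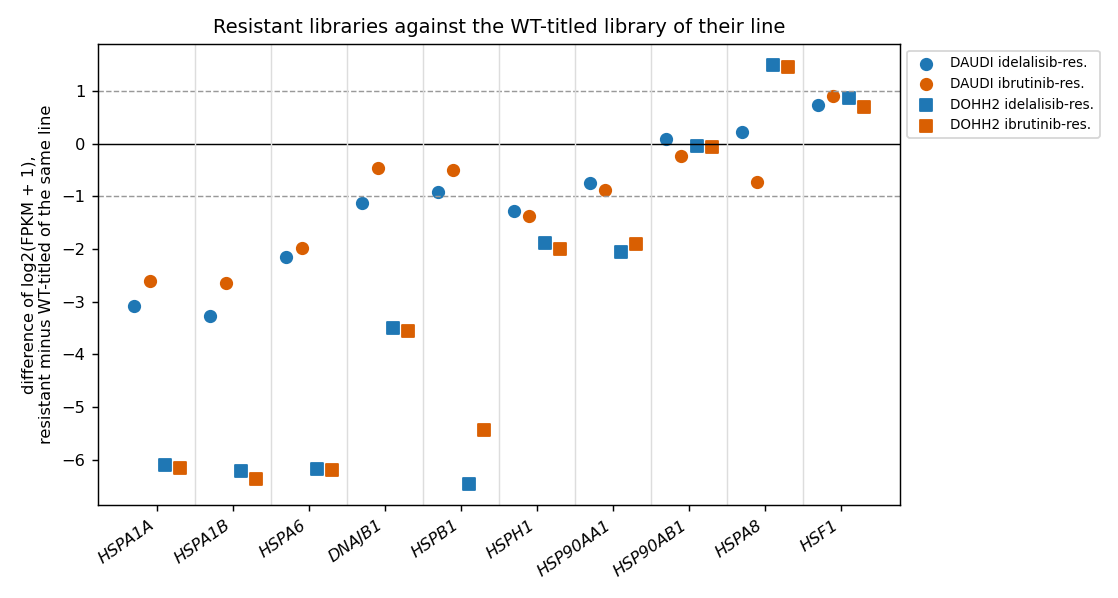
Difference of log2(FPKM + 1) between each resistant library and the WT-titled library of its line, by member; circles are DAUDI, squares DOHH2, blue idelalisib-resistant, orange ibrutinib-resistant, and the dashed lines mark a difference of 1 in either direction. HSPA1A, HSPA1B and HSPA6 lie near −6 in DOHH2 and between −1.98 and −3.27 in DAUDI, while HSP90AB1 lies between −0.24 and 0.10 in both lines.

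Counted at a difference of at least 1, 5 members were lower and none higher in idelalisib-resistant DAUDI (HSPA1A, HSPA1B, HSPA6, HSPH1 and DNAJB1), where 31.1% of all genes differed, 15.3% higher and 15.8% lower. In ibrutinib-resistant DAUDI 4 were lower, the same genes without DNAJB1 (34.9% of all genes differed, 20.2% higher and 14.6% lower). In DOHH2, 7 members were lower and 1, HSPA8, higher with either drug, where 31.8% of all genes differed with idelalisib and 30.6% with ibrutinib, with 16.0% and 14.9% of all genes higher and 15.7% lower with each drug. The median over the members was −1.02 and −0.80 in idelalisib-resistant and ibrutinib-resistant DAUDI and −2.78 and −2.77 in DOHH2, beside 0.05, 0.18, 0.08 and 0.03 over all genes tested. These within-line differences have no replicate check, and both drugs of a line share 1 WT-titled library. HSPA6 is listed at 0 in ibrutinib-resistant DOHH2, so the size of its difference there is set by the pseudocount and gives no fold. The all-gene median of 0.18 in ibrutinib-resistant DAUDI became −0.01, and the share of higher among the called genes 47.7% in place of 58.1%, after rescaling to the median of ratios. Under that scaling HSP90AA1 passed the size of 1 there as well (−1.13 in place of −0.89).

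A test across libraries used limma on 3 groups, the 2 WT-titled libraries and the 2 resistant libraries of each line, with Benjamini-Hochberg adjustment over all genes. These groups were set after earlier results of the same data had shown the WT-titled libraries alike and the resistant ones grouped by line. The fit takes the WT-titled libraries of both lines as replicates, so their gap enters the error. The background was high: 61.8% of all genes tested passed, 35.1% higher and 26.7% lower in resistant cells. Of the members 8 passed, 7 lower and 1 higher, with HSPA6 among the 7. Among the inducible HSP70 genes HSPA1A fell by 4.49 on the log2(FPKM + 1) scale (SE 0.82, adjusted p = 0.0052) and HSPA1B fell by 4.63 (SE 0.83, adjusted p = 0.0048). The difference of HSPA6 was −4.13 (SE 0.91), a description, given how it entered the test. HSPB1 fell by 3.33 (SE 0.58, adjusted p = 0.0043) and DNAJB1 fell by 2.16 (SE 0.63, adjusted p = 0.0284).

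The changes of HSPH1, HSP90AA1 and HSF1 were smaller and had smaller standard errors. Against the WT-titled library of its line, HSP90AA1 still differed more in DOHH2 (−2.05 and −1.91) than in DAUDI (−0.74 and −0.89), idelalisib first. In the same limma fit HSPH1 fell by 1.63 (SE 0.18, adjusted p = 0.00083), HSP90AA1 fell by 1.40 (SE 0.23, adjusted p = 0.0037) and HSF1 rose by 0.81 (SE 0.10, adjusted p = 0.0014). HSPA8 differed by 0.62 (SE 0.26, adjusted p = 0.0914), which did not pass, and HSP90AB1 by −0.06, with a 95% interval of −0.37 to 0.25.

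The size of the fall depended on which WT-titled library was kept. In limma without the DOHH2 WT-titled library the differences were −2.94 for HSPA1A, −3.08 for HSPA1B, −2.39 for HSPA6, −2.38 for HSPB1 and −1.01 for DNAJB1, and without the DAUDI WT-titled library −6.03, −6.17, −5.87, −4.28 and −3.31. Leaving out a library leaves its group with 1, which is then assumed to vary like the other groups. On that assumption HSPA1A, HSPA1B, HSPH1, HSP90AA1, HSPB1 and HSF1 passed with any 1 of the 6 libraries left out. DNAJB1 did not pass without the DOHH2 WT-titled library (adjusted p = 0.0753) or without any 1 of the 4 resistant libraries (0.0702 to 0.0984), and HSPA8 passed without the ibrutinib-resistant DAUDI library (0.85, adjusted p = 0.0031) and without the idelalisib-resistant one (0.38, adjusted p = 0.0216). With line and resistance as additive factors HSPB1 (adjusted p = 0.0883) and DNAJB1 (adjusted p = 0.0536) did not pass.

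Whether the difference between resistant and WT-titled cells itself differed between the lines was tested by an interaction of line and resistance in limma, added after the data were seen. Each line has 1 WT-titled library, so the spread came only from the 2 resistant libraries of each line, and the WT-titled ones were assumed to vary like them. On that assumption 4 members passed, where 9.6% of all genes tested passed (4.58% higher, 5.02% lower). The difference in DOHH2 minus that in DAUDI was −3.29 for HSPA1A (SE 0.36, adjusted p = 0.0307), −3.33 for HSPA1B (SE 0.46, adjusted p = 0.0433), −5.24 for HSPB1 (SE 0.75, adjusted p = 0.0462) and −4.13 for HSPA6 (SE 0.17, adjusted p = 0.0075). In the libraries that gave the spread HSPA6 was at 0.663 FPKM or less, HSPA1A at 1.80 FPKM or less and HSPA1B at 3.54 FPKM or less, so these errors do not hold the spread at the higher WT-titled levels. DNAJB1 (−2.73, adjusted p = 0.0633) and HSP90AA1 (−1.17, adjusted p = 0.0552) did not pass. HSF1 had a difference of −0.04 with a 95% interval of −0.68 to 0.59. This contrast contains the gap between the WT-titled libraries. It takes their lines from the titles, although these libraries did not group with their lines. For HSPA1A, HSPA1B and HSPA6 the resistant libraries of both lines were at 3.54 FPKM or less, whereas HSPB1 also differed between resistant libraries.

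The resistant lines were compared directly in the 3-group fit. HSPA8 and HSPB1 were the members that passed, in opposite directions, where 39.0% of all genes did (18.0% higher, 21.0% lower). HSPA8, at 740.2 and 718 FPKM in resistant DOHH2 against 339 and 175 FPKM in resistant DAUDI, was higher in DOHH2 by 1.58 (SE 0.31, limma adjusted p = 0.0118). HSPB1, at 0.176 and 1.39 FPKM in resistant DOHH2 against 13.7 and 18.5 FPKM in resistant DAUDI, was lower in DOHH2 (difference −3.34, SE 0.67, limma adjusted p = 0.0131). For both genes the libraries of the lines did not overlap, nor did they for 3 other members (HSPA6, DNAJB1 and HSP90AA1, all lower in DOHH2) or for 70.5% of all genes tested, 39.0% lower and 31.5% higher in DOHH2. The other 8 members did not pass and had differences of −0.64 (HSPA6) to 0.13 (HSP90AB1). HSPH1 was the closest, at 0.01 with a 95% interval of −0.52 to 0.54.

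Drug by drug, the same pair and no other member differed by at least 1, a share near that of all genes. Between idelalisib-resistant libraries the difference, DOHH2 minus DAUDI, was 1.12 for HSPA8 and −3.65 for HSPB1, where 18.7% of all genes differed (9.14% higher, 9.53% lower). Between ibrutinib-resistant libraries the differences were 2.03 and −3.03, where 22.0% did (8.31% higher, 13.7% lower). The limma calls did not survive every omission. HSPA8 did not pass without either WT-titled library or either resistant DOHH2 library (adjusted p from 0.0606 to 0.0767). HSPB1 did not pass without either resistant DAUDI library or the idelalisib-resistant DOHH2 library (0.0592 to 0.0879). Neither passed with line and resistance as additive factors (0.267 for HSPA8 and 0.422 for HSPB1).

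The drugs were compared within each line and over both. In DAUDI none of the 10 members differed by 1 between ibrutinib-resistant and idelalisib-resistant cells, where 3.5% of all genes did (2.2% higher, 1.31% lower). The largest difference was that of HSPA8, −0.95, at 175 FPKM with ibrutinib against 339 FPKM with idelalisib, followed by DNAJB1 with 0.67 (22.3 against 13.6 FPKM) and HSPA1B with 0.62. The all-gene median there was 0.14, and after rescaling to the median of ratios, which brought it to 0.02, HSPA8 passed the size of 1 (−1.12). That scaling also turned the split of called genes from 62.7% higher to 50.6%. In DOHH2 HSPB1 alone differed by 1 (1.02, from 0.176 to 1.39 FPKM), where 1.08% of all genes did (0.665% higher, 0.413% lower), and with a pseudocount of 5 it differed by 0.30.

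With both lines in limma and the line as a block, no member passed between the drugs and none had an unadjusted p under 0.05, where 0.00811% of all genes passed, which is 1 gene, lower with ibrutinib. The 95% intervals of that difference were wide for the inducible genes, −2.53 to 2.99 for HSPA1B, and narrower for HSF1, −0.48 to 0.47, and HSP90AB1, −0.63 to 0.27. In the same fit, idelalisib-resistant against WT-titled cells gave 4 members: HSPA1A (−4.60, adjusted p = 0.0483), HSPA1B (−4.74, adjusted p = 0.0474), HSPH1 (−1.58, adjusted p = 0.0228) and HSF1 (0.81, adjusted p = 0.0478), where 19.6% of all genes passed (9.19% higher, 10.4% lower). Ibrutinib-resistant against WT-titled cells gave HSPH1 (−1.69, adjusted p = 0.0205) and HSF1 (0.80, adjusted p = 0.0486), where 19.7% did (9.99% higher, 9.67% lower), and HSPA1A (−4.38, adjusted p = 0.0529) and HSPA1B (−4.51, adjusted p = 0.0522) lay just outside. All members called by these limma contrasts lost their call when any 1 of the 4 resistant libraries was left out, at which 0 genes passed in all. Without the DAUDI WT-titled library 7 members passed with either drug and without the DOHH2 one 4 did, and HSF1 passed in neither case.

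Within the HSP70 and HSP90 families the balance between inducible and constitutive forms shifted with the titles. HSPA1A, HSPA1B and HSPA6 together made up 14.5% of their sum with HSPA8 in DAUDI WT and 63.7% in DOHH2 WT. In resistant cells that share was 1.0% and 3.32% in DAUDI with idelalisib and ibrutinib, and 0.456% and 0.410% in DOHH2. The ratio of HSP90AA1 to HSP90AB1 was 0.679 in DAUDI WT and 1.11 in DOHH2 WT, and 0.377, 0.432, 0.274 and 0.307 in the resistant libraries in the same order. For both measures each WT-titled library was above all 4 resistant ones, and DOHH2 WT was the single library where the inducible form exceeded the constitutive one. The ratio of HSPA1B to HSPA1A moved little, from 1.67 to 2.04 over the 6 libraries.

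**Figure D4:**
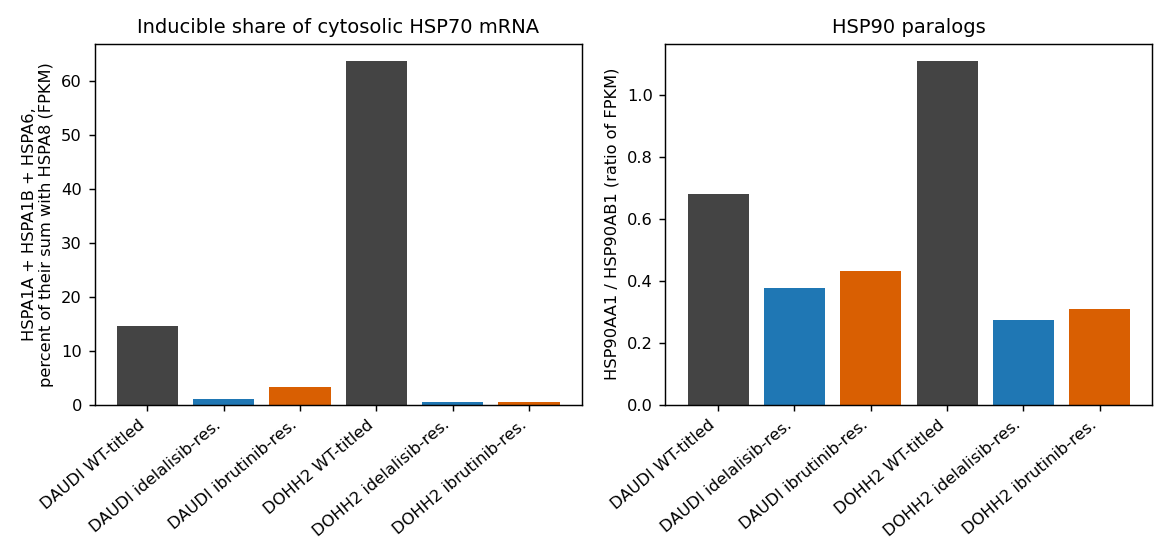
Left, summed FPKM of HSPA1A, HSPA1B and HSPA6 as a percent of their sum with HSPA8; right, ratio of HSP90AA1 to HSP90AB1 FPKM; 1 bar per library, with no error bars because each group has 1 library. The DOHH2 WT-titled library is highest in both, at 63.7% and 1.11.

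HSP90AA1, HSP90AB1 and HSPA8 are the members with more than 1 deposited isoform. HSP90AA1 came almost wholly from NM_005348. The longer NM_001017963 held 0.0409% of the gene's FPKM in DAUDI WT and practically none in DOHH2 WT, but 1.12% and 1.29% in resistant DAUDI and 1.67% and 0.772% in resistant DOHH2, in the order idelalisib, ibrutinib. In FPKM that isoform was at 1.66, 1.75, 1.77 and 0.902 in the resistant libraries against 0.102 in DAUDI WT, so its level was higher where that of the main isoform was lower. The shorter HSPA8 isoform NM_153201 held 0.931% and 0.994% in the ibrutinib-resistant libraries of DAUDI and DOHH2 and no more than 0.0472% in the other 4. Such shares are Cufflinks estimates with no replicate and were not tested.

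The wider chaperone network was read from lists of heat shock and chaperone genes, in the 3-group limma fit of resistant against WT-titled cells. That fit called 35.1% of all genes tested higher and 26.7% lower, and the counts of each list stand beside those shares; no list was tested against the others or against the members. Among 5 tested heat shock factors and their binding partners 3 rose and 0 fell (median 0.82, beside 0.12 over all genes). HSF2, another heat shock factor, was at 2.91, 8.35 and 9.87 FPKM across the DAUDI states and 3.07, 9.32 and 10.2 FPKM across those of DOHH2, and rose by 1.38 (adjusted p = 0.00024). Like HSF1, it was higher in all 4 resistant libraries than in both WT-titled ones. HSBP1L1 had the widest range of that list and no common direction: it was at 9.18, 0 and 0 FPKM across the DAUDI states and 11.7, 0.799 and 14.6 FPKM across those of DOHH2 (difference −2.30, adjusted p = 0.0539). HSF2BP was at 0.0993 and 0.0510 FPKM in the WT-titled libraries and 0.635 to 2.04 FPKM in the resistant ones, and entered the test only through the latter.

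Among the partners of HSP70, read against the same 35.1% higher and 26.7% lower of all genes, 2 of 16 J-domain proteins rose and 5 fell. DNAJA1, an abundant partner of HSPA8, was at 167, 72.7 and 65.0 FPKM across the DAUDI states and 167, 33.2 and 34.7 FPKM across those of DOHH2, and fell by 1.76 (limma adjusted p = 5.4e-05). DNAJB5 fell by 1.32 (adjusted p = 0.0027), and DNAJA4 was at 10.9 and 14.1 FPKM in the WT-titled libraries and listed at 0 in all 4 resistant ones. Of 9 exchange factors and other HSP70 partners 0 rose and 3 fell. HSPBP1, an exchange factor, fell by 1.80 (adjusted p = 7.4e-05). BAG2 differed by −0.12 (adjusted p = 0.324), with opposite directions in the lines. It was at 5.99, 2.52 and 2.88 FPKM across the DAUDI states and 5.75, 10.1 and 9.45 FPKM across those of DOHH2. BAG3, which links HSP70 to autophagy, was at 3.74, 0.363 and 0.812 FPKM across the DAUDI states and 6.86, 0.667 and 0.490 FPKM across those of DOHH2. BAG3 and DNAJA4 reached 1 FPKM only in the WT-titled libraries, so they are given as levels, though both are in the counts.

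The remaining lists, apart from that of endoplasmic reticulum chaperones, were read against 35.1% of all genes higher and 26.7% lower in that fit. Of 9 further HSP70 and HSP110 genes listed 6 were tested, of which 1 rose and 3 fell. The 1 that rose, HSPA2, reached 1 FPKM only in resistant libraries, and HSPA4L, among the 3, only in the WT-titled ones. The directions of HSPA2 and HSPA4L are therefore no result, though both are in the counts. HSPA7 differed by −2.32 (limma adjusted p = 0.0293), which came from DOHH2. It was at 2.88, 2.56 and 2.77 FPKM across the DAUDI states and 22.4, 0 and 0 FPKM across those of DOHH2. HSPA13 differed by 0.70 (adjusted p = 0.0891), mainly through DAUDI. It was at 11.6, 21.8 and 47.2 FPKM across the DAUDI states and 11.0, 11.5 and 10.3 FPKM across those of DOHH2. HSPA4L was at 2.60 and 3.37 FPKM in the WT-titled libraries and at most 0.00871 FPKM in the resistant ones. Of 10 other genes listed as small heat shock proteins only HSPB11 was expressed enough to test (0.31, adjusted p = 0.0896). Among 15 HSP90 co-chaperones 2 rose and 5 fell (median −0.03). FKBP4 differed by −0.56 (adjusted p = 0.0047), mainly through DAUDI. It was at 31.2, 16.5 and 14.8 FPKM across the DAUDI states and 28.1, 24.8 and 25.2 FPKM across those of DOHH2. FKBP5 differed by −0.62 (adjusted p = 0.0106), mainly through DOHH2. It was at 64.5, 67.6 and 54.6 FPKM across the DAUDI states and 52.5, 22.3 and 23.5 FPKM across those of DOHH2. PPID differed by −0.42 (adjusted p = 0.179). Among 14 subunits of the TRiC chaperonin and prefoldin, which fold actin and tubulin, 7 rose and 0 fell (median 0.25). CCT6A rose by 0.84 (adjusted p = 0.0038), PFDN4 rose by 0.83 (adjusted p = 0.0029) and TCP1 rose by 0.76 (adjusted p = 0.0015). Among 10 mitochondrial chaperones 2 rose and 1 fell. GRPEL1 rose by 1.16 (adjusted p = 0.00024), and HSPA9 (−0.03) and LONP1 (−0.39) did not pass. HSPA9 went in opposite directions in the lines. It was at 91.9, 111 and 133 FPKM across the DAUDI states and 80.5, 59.3 and 57.7 FPKM across those of DOHH2. LONP1 was at 62.7, 57.3 and 85.7 FPKM across the DAUDI states and 74.2, 43.8 and 33.0 FPKM across those of DOHH2.

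Of 14 endoplasmic reticulum chaperones 5 rose and 2 fell against the WT-titled libraries (median 0.43), beside 35.1% and 26.7% of all genes. At a difference of at least 1 from the line's WT-titled library, 4 were higher and 1 lower in idelalisib-resistant DAUDI (median 0.80). In ibrutinib-resistant DAUDI 11 were higher and 1 lower (median 1.55). In DOHH2, 2 were higher and 2 lower with each drug (medians −0.17 and −0.37). Of all genes, idelalisib first, 15.3% and 20.2% were higher in DAUDI and 16.0% and 14.9% in DOHH2. Lower were 15.8% and 14.6% in DAUDI and 15.7% with each drug in DOHH2. DNAJC10, a disulfide reductase that takes part in the disposal of misfolded proteins, was at 12.7, 102 and 124 FPKM in DAUDI and 10.2, 109 and 103 FPKM in DOHH2 and rose by 3.16 (limma adjusted p = 2.9e-05). HYOU1, a large HSP70 relative, rose by 1.88 (adjusted p = 0.0037). SERPINH1, the collagen chaperone HSP47, was at 10.2, 0.0779 and 0.417 FPKM across the DAUDI states and 35.6, 0 and 0 FPKM across those of DOHH2, and entered the test only through the WT-titled libraries. Between resistant lines 11 of the 14 were lower in DOHH2 and 0 higher (median −1.21, beside −0.04 over all genes), where 21.0% of all genes were lower and 18.0% higher.

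By Pearson's r of log2(FPKM + 1) over the 6 libraries, among 7037 genes that reached 10 FPKM in 1 library, the genes most like HSPA1B were HSPA1A (0.9997), HINT2 (0.993), HSPA6 (0.992) and SERPINH1 (0.989). Those most like HSPB1 were C15orf39 (0.995), HPCAL1 (0.994), ARAP1 (0.992) and OGFR (0.990), none of them on the chaperone lists. Those most like HSP90AA1 were CD37 (0.996), DLGAP1-AS1 (0.984), HSPA6 (0.983) and ZNF473 (0.983). With 6 points, which share 2 lines and 3 states, these values describe likeness only.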

How the data were processed

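PolyA RNA of 6 libraries was measured. Per the labels' protocols a directional mRNA kit was used, and per the submitters' processing notes bcl2fastq, cutadapt, TopHat2, Cufflinks and hg19 were used, in versions not given in the sources used here. Values were deposited as FPKM per RefSeq isoform, which the authors scaled for transcript length and mapped fragments. The deposited coverage signal served only for relative depth, so absolute depth is unknown and no counting interval is given. FPKM of 43490 isoforms were summed by gene symbol. Excluded were 528 isoforms lacking a gene name and 10 genes whose estimate failed. Tests used log2(FPKM + 1) on genes at 1 FPKM or more in at least 1 library. Within 1 library per group a difference of 1 or more was counted, with no test. limma 3.58.1 (R 4.3.3; empirical Bayes with trend, two-sided, Benjamini-Hochberg over all 12337 genes, threshold 0.05) was fitted with state and line as a block (2 residual degrees of freedom), on 3 groups (3) and, added after the data were seen, as line by resistance (2). The code of the fits was run on simulated data with known changes, which checks the code and not the results given here. Alternatives were other pseudocounts, filters, scalings and designs, the isoform of highest mean, HSPA1A and HSPA1B summed, no trend, and each library left out. The members, the lists and the 3 groups were chosen with earlier results of these data known. Named genes are the members, up to 3 genes of each list with the widest range over libraries, and the 4 most like HSPA1B, HSPB1 and HSP90AA1.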

Additional observations from a re-analysis of the deposited data

Results flagged for a closer look

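For 4 members the difference between resistant and WT-titled cells had a call for a difference between the lines by a test of the interaction in limma, a fit added after the data were seen. Each line has 1 WT-titled library, which the fit assumes to vary like the resistant libraries, and for HSPA1A, HSPA1B and HSPA6 those were at 3.54 FPKM or less. The difference in DOHH2 minus that in DAUDI, on the log2(FPKM + 1) scale, was −3.285 for HSPA1A (adjusted p = 0.0307), −3.33 for HSPA1B (0.0433), −4.126 for HSPA6 (0.0075) and −5.243 for HSPB1 (0.0462). With a pseudocount of 0.1, 3 of the 4 did not pass (adjusted p = 0.0555 for HSPA1A, 0.0617 for HSPA1B and 0.113 for HSPB1).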

How the results depend on the processing

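Each group has 1 library, absolute depth is unknown, and levels near 1 FPKM, such as those of HSPA1A and HSPA6 in resistant cells, depend on the pseudocount. The fits of each drug against WT-titled cells pair libraries by line. Without that line block 4 members passed for idelalisib and 3 for ibrutinib, in place of 4 and 2. No pairing by replicate number exists, as the labels carry none.

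With a pseudocount of 5 in place of 1, 3 rather than 5 members differed in idelalisib-resistant DAUDI, 0 rather than 1 between the drugs in DOHH2, and 1 rather than 4 (idelalisib) and 1 rather than 2 (ibrutinib) passed limma against the WT-titled libraries of both lines. With the isoform of highest mean these limma counts were 2 and 1, with no filter 1 and 1, and for ibrutinib without trend 1. Between the drugs in DAUDI 1 rather than 0 members differed under median-of-ratios and under upper-quartile scaling. With a library left out, the limma counts ranged from 0 to 7 for idelalisib and for ibrutinib against WT-titled cells, from 7 to 8 for resistant against WT-titled cells, and from 0 to 2 between resistant lines. As additive factors, line and resistance gave 0 rather than 2 members between resistant lines, and 4824 rather than 7625 genes of all between resistant and WT-titled cells and 0 rather than 4817 between resistant lines. The interaction gave 1 member with a pseudocount of 0.1 and 2 each with no filter and with the isoform of highest mean, in place of 4, and the test of the WT-titled pair gave 0 with a pseudocount of 0.1 and 2 with a pseudocount of 5, in place of 1.

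Among the values checked for sign, reversals occurred only where no test had been passed. Not checked were differences below 1 between single libraries and all members between the drugs over both lines. Members not called between resistant lines or in the fits added later were not checked either. Between the drugs over both lines, for example, HSPA1A ran from −0.81 to 1.24 over the alternatives. HSP90AB1 in idelalisib-resistant cells was −0.0996 with median-of-ratios scaling and −0.0874 without the idelalisib-resistant DAUDI library, in place of 0.0274 (range with a library left out −0.0874 to 0.142), and 0.0216 in resistant cells without the ibrutinib-resistant DAUDI library, in place of −0.0625 (range −0.147 to 0.0216). HSPA8 in ibrutinib-resistant cells was −0.495 without the DOHH2 WT-titled library and −0.406 without the ibrutinib-resistant DOHH2 library, in place of 0.367 (range −0.495 to 1.23). The cause was not tested. Of the values followed in this way, 982 were labelled unchanged under the alternatives, 72 lost their call and 25 gained one. The unchanged ones include differences below 1 between single libraries whatever their sign, and some counts of members in the fits added later.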
